A study of Homo sapiens with 12 samples.

Results

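The subject here is how the response of HCT116 cells to 20 nM dolastatin 15 changed between 16 h and 24 h of treatment. For every gene the effect of the drug at each time was the log2 difference between treated and solvent cells, and the change was the effect at 24 h minus the effect at 16 h. The comparison used 8 of the 12 RNA sequencing libraries of the series, and all 13458 genes that passed a filter on low values, of 58174 listed, were fitted. HCT116 is an established human colorectal carcinoma line, and dolastatin 15 is a peptide first isolated from a sea hare that binds tubulin and blocks microtubule assembly. The 4 groups were cells in solvent for 16 h (libraries 5 and 6), cells in 20 nM drug for 16 h (libraries 1 and 2), cells in solvent for 24 h (libraries 11 and 12) and cells in 20 nM drug for 24 h (libraries 7 and 8). All of them, treated or not, were kept in 0.25% DMSO, and all were the same single line without any genetic change named in the labels. The other 4 libraries, cells in 100 nM drug at both times, entered the estimate of the spread and 1 comparison between doses. Samples are called duplicates in the labels, with no word on separate cultures. The p-values therefore rest on the spread within these pairs, and that spread may be only technical.

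Microtubules build the spindle that separates chromosomes in mitosis. When they cannot form, kinetochores stay unattached, the spindle assembly checkpoint keeps the anaphase-promoting complex inactive, and cells are held in mitosis with high cyclin B and CDK1 activity. Held cells may die there or leave mitosis without dividing and enter the next cell cycle with a doubled genome. Genes of G2 and mitosis and genes of S phase are transcribed in separate waves, the first through the MuvB complex with B-MYB and FOXM1 and the second through E2F factors. Cells also sense free tubulin: when unpolymerised tubulin builds up, tubulin mRNAs are degraded as they are translated.

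In all libraries 8 of 10 markers of intestinal epithelium were at 1 FPKM or more, among them KRT8 (409.6 to 458 FPKM) and EPCAM (250.6 to 335 FPKM), while TSPAN8 and VIL1 stayed under 1. Of the markers of other cell types, 6 of 7 for fibroblasts, all 5 for endothelium and 5 of 6 for immune cells stayed under 1 FPKM in every library. PTPRC, the common leukocyte antigen, was at most 0.02 FPKM. FPKM, a fragment count divided by transcript length and library size, holds no read counts, so the depth is unknown. The 20 nM libraries at 24 h stood apart in composition: mitochondrially encoded genes held 23.8% and 25.8% of their FPKM sum, against 17.9% and 18.6% in solvent at 24 h, 21.8% in both 20 nM libraries at 16 h and 21.6% and 22.2% in solvent at 16 h. FPKM sums were 1048249 and 1049886 in the 20 nM libraries at 24 h and 911720 to 959812 in the other 6. Rescalings that bear on this difference are given with the counts. Summed FPKM of the 6 immune markers, nearly all of it CD68, a lysosomal protein, was 7.73 to 8.28 in solvent and 9.89 to 11.1 at 20 nM at 16 h, and 10.4 to 12.1 in solvent and 15.0 to 19.4 at 20 nM at 24 h, and its part in the results was not tested.

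The change of effect passed the test in 1550 genes, 11.5% of those tested (limma with Benjamini-Hochberg adjustment, adjusted p under 0.05). In 950 of them (7.06%) the change was upward and in 600 (4.46%) downward, and 70 changed by at least 1 on the log2 scale. At an unadjusted p under 0.05 there were 3759. The effect itself was called in 2388 genes at 16 h (17.7%), of which 912 were higher than solvent (6.78%) and 1476 lower (11%). By 24 h it was called in 3880 (28.8%), with 1984 higher (14.7%) and 1896 lower (14.1%). Of 1185 genes called at both times, 1002 went the same way and 183 opposite ways. Across genes, which are not independent replicates, the effects at the 2 times had a Pearson correlation of 0.18. The median gene had an effect of -0.02 at 16 h and 0.00 at 24 h, and a change of 0.03.

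Genes with a called change fell into classes. In 84 (0.624% of genes tested) the effect reversed from higher than solvent at 16 h to lower at 24 h, with both effects called, and in 99 (0.736%) it reversed from lower to higher. It faded, meaning that it was called at 16 h and smaller at 24 h, in 118 genes raised at 16 h (0.877%) and 317 lowered at 16 h (2.36%). It grew, meaning that it was called at 24 h and larger in size than at 16 h, in 499 genes raised at 24 h (3.71%) and 363 lowered at 24 h (2.70%). Fading and growth compare sizes alone, so the smaller of the effects at 16 h and 24 h may have the opposite sign. The other 70 met none of these. Giving all libraries the same sum (TPM) moved the median change of all genes by -0.17 and gave 346 upward and 2116 downward calls, so 14.1% rather than 61.3% were upward. Rescaling over nuclear genes alone gave 625 and 934, and median-of-ratios scaling 775 and 748. Under TPM the change had the opposite sign in 5 of the 1550 called genes, whether or not it passed there. Without library 1 the count was 705, without 2 it was 739, without 5 it was 762, without 6 it was 998, without 11 it was 715 and without 12 it was 912.

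**Figure D1:**
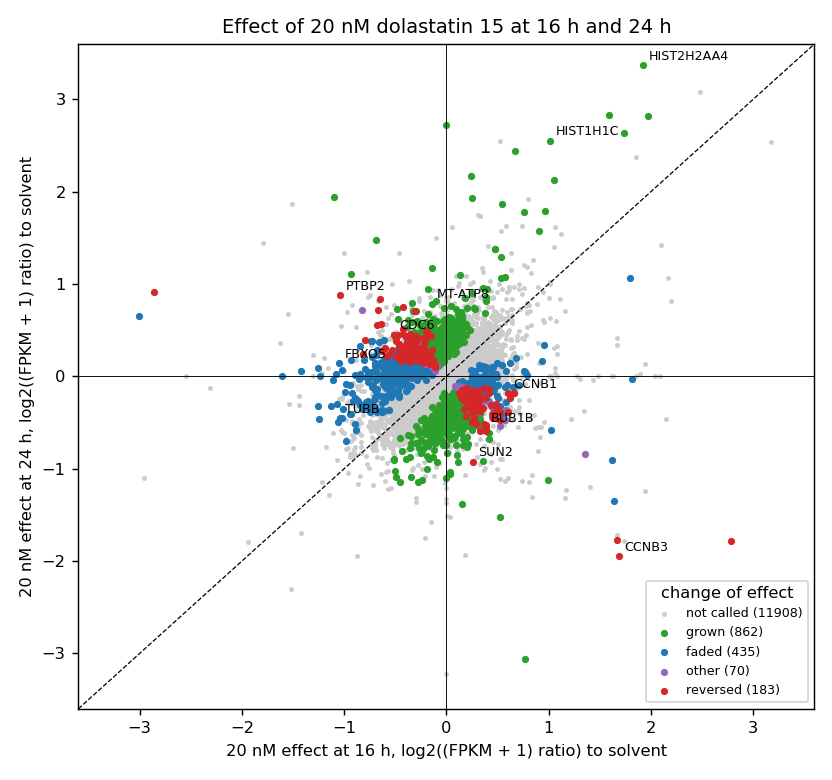
Each point is 1 of the tested genes, with the log2 effect of 20 nM against solvent at 16 h on the x axis and at 24 h on the y axis; the dashed line marks equal effects, colours mark the classes, and a few genes beyond 3.6 on either axis are not drawn. The 183 reversed genes lie in the upper left and lower right, and histone genes such as HIST2H2AA4 lie far above the line.

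Most of the movement was in the treated cells. Between 16 h and 24 h, 3998 genes changed in 20 nM cells (29.7%) and 756 in solvent cells (5.62%). Of the 1550 genes with a changed effect, 1174 had a called time difference in 20 nM cells alone, 145 in solvent alone, 95 in both and 136 in neither. The time difference was larger in the treated cells for 1229 of them, with a median size of 0.35 against 0.12 in solvent (log2). PLK1, BUB1B, BAG3 and GPRC5A were among the genes whose solvent level differed between the times as well, by 0.21, 0.44, 0.32 and -0.45 on the log2 scale (adjusted p = 0.0181, 0.0135, 0.00702 and 0.0069). The solvent count is sensitive to single libraries, at 23 without library 5, 98 without 6, 89 without 11, 44 without 12, 491 without 1 or 2, 1435 without 7 and 1437 without 8. The treated count was 2337 without library 1, 2000 without 2 and 2562 without 8.

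The promoters of reversed genes were read for short sequences tied to each wave. The 150 bases before the start are shown for 5 reversed genes of mitosis and 5 reversed genes of DNA replication, because they let the 2 groups be read side by side. These were picked for holding a match, so they are examples and not a sample. Sequences are from RefSeq promoters of GRCh38.p14, read 5′ to 3′ on the gene's strand. The RefSeq start can differ from the gene bounds printed below, and some windows, such as that of PLK1, lie inside those bounds. Capitals mark TTTGAA (the cell cycle genes homology region, where MuvB binds) or TTTAAA, the CCAAT box that NF-Y binds, and TTCCCGC or TTGGCGC (E2F sites), each on either strand.
CCNB1, chr5:69167000-69167149, plus strand: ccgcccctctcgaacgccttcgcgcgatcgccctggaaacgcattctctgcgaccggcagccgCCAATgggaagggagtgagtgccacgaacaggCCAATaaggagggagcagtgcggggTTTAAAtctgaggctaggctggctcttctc
CCNB2, chr15:59104996-59105145, plus strand: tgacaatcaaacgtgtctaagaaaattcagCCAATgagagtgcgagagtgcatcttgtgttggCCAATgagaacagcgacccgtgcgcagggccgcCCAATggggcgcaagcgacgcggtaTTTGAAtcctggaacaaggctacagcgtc
PLK1, chr16:23678739-23678888, plus strand: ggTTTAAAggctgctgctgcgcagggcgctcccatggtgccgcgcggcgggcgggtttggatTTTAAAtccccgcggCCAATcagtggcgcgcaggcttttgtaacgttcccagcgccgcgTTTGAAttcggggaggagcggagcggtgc
BUB1B, chr15:40160919-40161068, plus strand: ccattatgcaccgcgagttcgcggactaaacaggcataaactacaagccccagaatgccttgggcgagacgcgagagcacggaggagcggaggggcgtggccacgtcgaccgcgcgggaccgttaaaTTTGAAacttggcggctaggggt
KIF20A, chr5:138178962-138179111, plus strand: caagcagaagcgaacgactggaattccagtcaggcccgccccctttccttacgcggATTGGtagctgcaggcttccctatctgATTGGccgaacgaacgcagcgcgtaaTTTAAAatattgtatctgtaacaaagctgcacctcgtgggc
PCNA, chr20:5126623-5126772, minus strand: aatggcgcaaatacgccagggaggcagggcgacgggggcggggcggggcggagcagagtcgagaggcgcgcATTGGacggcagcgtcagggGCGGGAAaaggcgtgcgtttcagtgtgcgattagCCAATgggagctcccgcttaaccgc
RFC4, chr3:186806483-186806632, minus strand: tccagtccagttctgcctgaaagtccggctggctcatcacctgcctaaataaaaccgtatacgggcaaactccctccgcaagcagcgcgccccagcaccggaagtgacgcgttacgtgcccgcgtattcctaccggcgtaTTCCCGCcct
ORC1, chr1:52404424-52404573, minus strand: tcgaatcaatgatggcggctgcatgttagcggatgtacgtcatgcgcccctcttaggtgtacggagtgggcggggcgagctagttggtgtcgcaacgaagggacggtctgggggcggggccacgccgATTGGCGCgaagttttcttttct
PRIM1, chr12:56752324-56752473, minus strand: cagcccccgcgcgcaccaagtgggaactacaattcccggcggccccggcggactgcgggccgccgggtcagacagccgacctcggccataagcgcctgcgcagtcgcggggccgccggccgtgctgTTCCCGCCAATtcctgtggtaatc
DTL, chr1:212035598-212035747, plus strand: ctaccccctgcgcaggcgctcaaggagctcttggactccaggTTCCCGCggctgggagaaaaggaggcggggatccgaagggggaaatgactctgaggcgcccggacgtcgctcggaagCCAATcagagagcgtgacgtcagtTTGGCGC

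In CCNB2, PLK1 and BUB1B the TTTGAA match began at -29, -29 and -23 relative to the start, and in CCNB1 and KIF20A TTTAAA began at -30 and -41. In ORC1 and PRIM1 the E2F letters overlap a CCAAT match on one strand or the other. Over the 250 bases before the first start listed for each gene, TTTGAA was found in 16 of 66 genes reversed from higher to lower (24.2%) and 8 of 75 reversed from lower to higher (10.7%). It was in 7.94% of 9933 tested genes and 13.6% of all 27305 genes in the promoter table. The E2F letters were found in 2 of 66 (3.03%) and 14 of 75 (18.7%), against 13.0% of tested and 7.95% of all genes. TTTAAA was in 15.2% and 1.33%, against 6.68% of tested and 11.4% of all genes, and CCAAT in 43.9% and 37.3%, against 35.4% and 33.0%. A match is a description of the letters, not a bound site. Reversed genes without a promoter in the table, so all but 66 of 84 and 75 of 99, are left out.

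Several genes of mitotic entry and mitotic kinases switched from higher than solvent to lower. In the list of Aurora, PLK1 and chromosomal passenger genes the change was downward in 7 of 11 and upward in none, against 4.46% downward among all genes. Counts of called changes in every list below are to be read against 7.06% upward and 4.46% downward among all genes. Their median effect went from 0.15 to -0.30. CCNB1, cyclin B1, the activator of CDK1 (chromosome 5, 69167010 to 69178245, plus strand), read 314 and 292 FPKM in solvent and 450.5 and 468 at 20 nM at 16 h, and 289.9 and 292 in solvent and 259 and 254 at 20 nM at 24 h. Its treated libraries were above both solvent libraries at 16 h and below both at 24 h (log2 0.60 at 16 h and -0.18 at 24 h, a change of -0.78, SE 0.06, adjusted p = 0.000353). PLK1, the polo-like kinase of mitosis (chromosome 16, 23677656 to 23690367, plus strand), read 167 and 165 FPKM in solvent and 229 and 226 at 20 nM at 16 h, and 192 and 192 in solvent and 137 and 144 at 20 nM at 24 h. Here too the groups were apart at both times, in opposite order (log2 0.45 at 16 h and -0.45 at 24 h, a change of -0.90, SE 0.05, adjusted p = 0.000116). AURKA, the kinase of spindle poles (chromosome 20, 56369389 to 56392337, minus strand), read 113 and 111 FPKM in solvent and 173 and 173 at 20 nM at 16 h, and 113 and 111 in solvent and 97.7 and 92.9 at 20 nM at 24 h. Its solvent values stayed within 2 FPKM of each other, and the treated level crossed from above to below them (log2 0.62 at 16 h and -0.23 at 24 h, a change of -0.85, SE 0.06, adjusted p = 0.00016). BIRC5 (survivin) and SGO2 (shugoshin, which protects centromeric cohesion) reversed as well, with changes of -0.79 and -0.75 (adjusted p = 0.00482 and 0.00197).

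The rest of these lists did not all follow. AURKB, the kinase of the passenger complex, read 86.9 and 85.9 FPKM in solvent and 54.2 and 60.5 at 20 nM at 16 h, and 85.2 and 88.6 in solvent and 56.5 and 56.8 at 20 nM at 24 h, with all treated libraries below all solvent libraries and no called change (effects -0.58 and -0.61, change -0.03, SE 0.08, adjusted p = 0.863). Its partner INCENP had effects of -0.56 and -0.59. In the list of the mitotic entry switch 5 of 15 changes were downward and 2 upward. Cyclins CCNB2 and CCNA2 reversed by -0.49 and -0.40, and BORA, which helps AURKA activate PLK1, faded by -0.76 (adjusted p = 0.00108, 0.00411 and 0.00108). CDK1, the kinase they serve (chromosome 10, 60778331 to 60794852, plus strand), went the other way and read 73.2 and 70.2 FPKM in solvent and 31.6 and 32.8 at 20 nM at 16 h, and 62.3 and 61.5 in solvent and 49.5 and 49.2 at 20 nM at 24 h. It stayed below solvent at both times, less so at 24 h (log2 -1.13 at 16 h and -0.32 at 24 h, a change of 0.81, SE 0.08, adjusted p = 0.000998). Of mitotic entry genes, 1 was upward without library 1, 2, 5, 6, 11 or 12 or under TPM, and 4 without library 7.

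**Figure D2:**
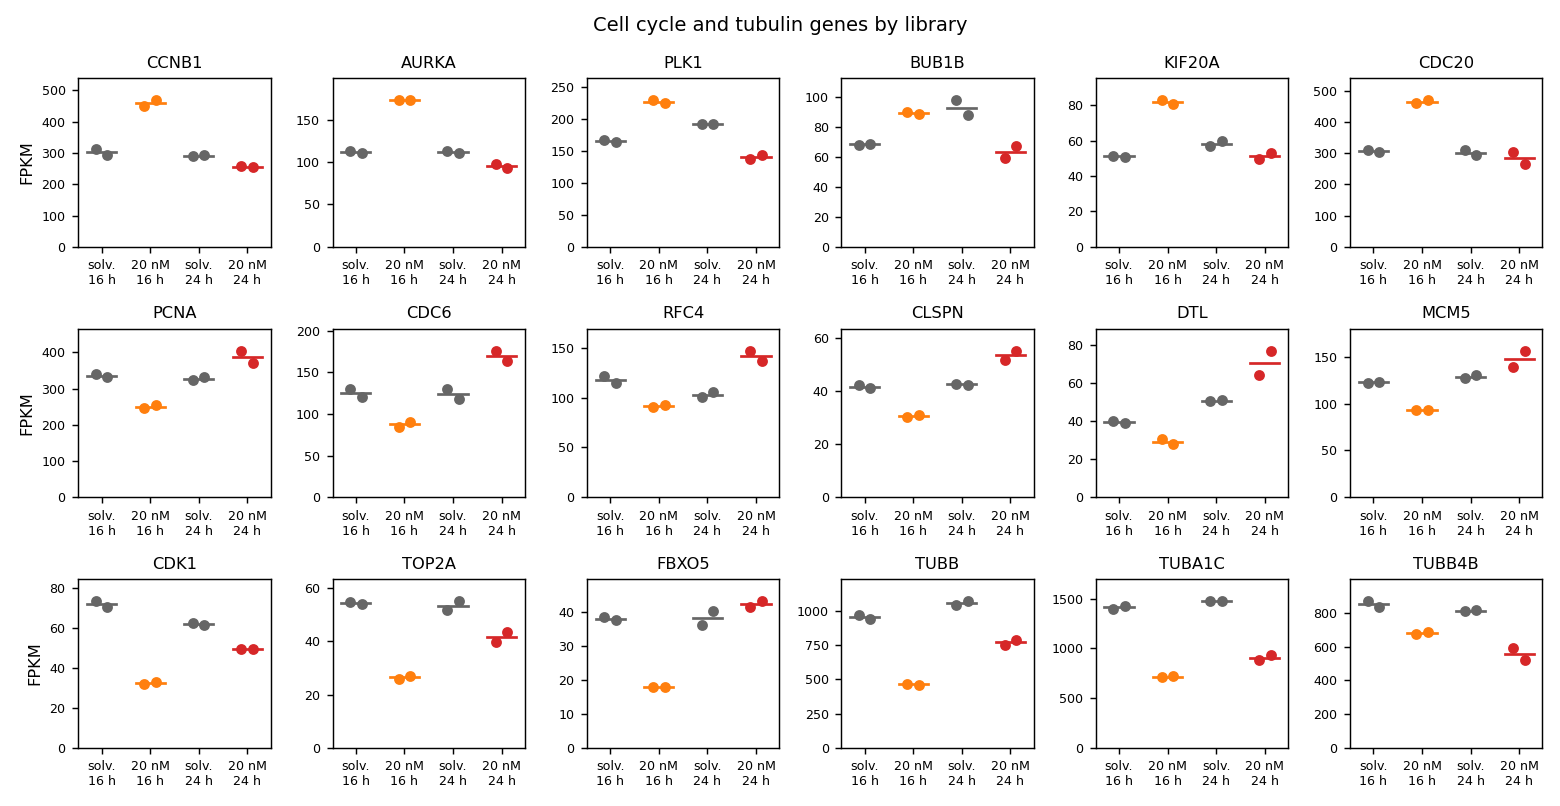
FPKM of 18 cell cycle and tubulin genes in each library (points) with the group mean of 2 libraries (bars), for solvent and 20 nM at 16 h and 24 h; every y axis starts at 0. CCNB1, AURKA, PLK1, BUB1B and KIF20A are above solvent at 16 h and below it at 24 h, PCNA to MCM5 show the opposite order, and CDK1, TOP2A and TUBB stay below solvent at both times.

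Some checkpoint, kinesin and cytokinesis genes reversed in the same direction. BUB1B, the checkpoint protein BubR1 (chromosome 15, 40161023 to 40221136, plus strand), read 68.3 and 68.4 FPKM in solvent and 90 and 89 at 20 nM at 16 h, and 97.8 and 88.1 in solvent and 59.1 and 67.3 at 20 nM at 24 h. Part of its change lies in solvent, which was higher at 24 h than at 16 h by 0.44, while treated cells differed by -0.50 (log2 0.38 at 16 h and -0.55 at 24 h, a change of -0.93, SE 0.09, adjusted p = 0.00106). BUB1, its partner kinase, reversed with a change of -0.65 (adjusted p = 0.00333). In all, 3 of 16 checkpoint genes changed downward and 1 upward, and the upward count was 0 without library 1, 5, 6, 11 or 12. Under TPM it was 5 downward and 0 upward. Among mitotic kinesins, motors of the spindle, 8 of 14 changed downward and none upward, with the median effect going from 0.12 to -0.18. KIF20A, a kinesin of the central spindle (chromosome 5, 138178719 to 138187715, plus strand), read 51.5 and 50.6 FPKM in solvent and 82.6 and 80.3 at 20 nM at 16 h, and 56.7 and 59.5 in solvent and 49.7 and 52.8 at 20 nM at 24 h (log2 0.66 at 16 h and -0.18 at 24 h, a change of -0.84, SE 0.06, adjusted p = 0.000353). CENPE, which carries chromosomes to the spindle equator, changed by -0.81 and KIF18B, a microtubule-shortening motor, by -0.52 (adjusted p = 0.00271 and 0.00116). The kinesin count was 5 without library 1.

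In the list of cytokinesis and spindle pole genes 10 of 18 changed downward and none upward, and the median effect went from 0.12 to -0.36. DEPDC1 reversed from 0.37 to -0.51, HMMR, a spindle protein, from 0.36 to -0.34 and DLGAP5, a spindle assembly factor, from 0.30 to -0.27. ASPM, which works at spindle poles, read 17.2 and 16.1 FPKM in solvent and 17.9 and 17.3 at 20 nM at 16 h, and 18.3 and 18.9 in solvent and 10.6 and 12.3 at 20 nM at 24 h. It was close to solvent at 16 h and below both solvent libraries at 24 h, so its effect grew (change -0.73, SE 0.10, adjusted p = 0.0029). Without library 1 the count was 5, and without 2, 6, 11 or 12 it was 6. Centromere and kinetochore genes were split, 4 of 19 upward and 2 downward. CENPA, the histone H3 variant of centromeres, reversed from 0.32 to -0.25 (change -0.57, adjusted p = 0.00181). The upward count there was 2 without library 1, 2, 11 or 12.

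The anaphase-promoting complex and its regulators moved both ways, with counts that stand beside 7.06% upward and 4.46% downward among all genes. Of 21 genes, 4 changed downward and 5 upward, and 3 were upward without library 1, 2, 5, 6 or 11. Under TPM 2 were upward and 5 downward. CDC20, the activator that the checkpoint restrains (chromosome 1, 43358955 to 43363203, plus strand), read 308 and 304 FPKM in solvent and 459 and 468 at 20 nM at 16 h, and 308 and 293 in solvent and 302 and 264 at 20 nM at 24 h. The rise at 16 h faded, and at 24 h treated and solvent libraries overlapped (log2 0.60 at 16 h and -0.09 at 24 h, a change of -0.69, SE 0.09, adjusted p = 0.00293). Securin PTTG1 and the ubiquitin-conjugating enzyme UBE2S, which extends ubiquitin chains for the complex, faded as well, by -0.43 and -0.68 (adjusted p = 0.00872 and 0.000755). FBXO5, the inhibitor EMI1 that keeps the complex off in S and G2 phase (chromosome 6, 152970519 to 152983579, minus strand), read 38.5 and 37.6 FPKM in solvent and 18 and 17.9 at 20 nM at 16 h, and 36.3 and 40.3 in solvent and 41.5 and 43.2 at 20 nM at 24 h. Its level at 16 h was less than that of either solvent library by a wide margin, and at 24 h both treated libraries were slightly above both solvent ones, without the 24 h effect passing the test (log2 -1.05 at 16 h and 0.14 at 24 h, a change of 1.19, SE 0.07, adjusted p = 0.000116). UBE2C, the chain-initiating enzyme, stayed below solvent, with effects of -0.89 and -0.58, and its change of 0.31 did not pass under TPM (adjusted p = 0.0108 and, under TPM, 0.153).

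Several chromosome structure genes lay closer to solvent at 24 h than at 16 h. TOP2A, the topoisomerase that untangles sister chromosomes (chromosome 17, 40388516 to 40417950, minus strand), read 54.7 and 54 FPKM in solvent and 25.9 and 27.1 at 20 nM at 16 h, and 51.9 and 55 in solvent and 39.6 and 43.5 at 20 nM at 24 h. It was below solvent in every treated library, and the gap was smaller at 24 h (log2 -1.01 at 16 h and -0.36 at 24 h, a change of 0.65, SE 0.08, adjusted p = 0.0027). NUSAP1, a spindle and chromosome protein, and NCAPH, a condensin subunit, followed with changes of 0.64 and 0.49 (adjusted p = 0.00181 and 0.00374). In the list, 5 of 12 changed upward and none downward, against 7.06% and 4.46% of all genes. Under TPM 3 were upward and 5 downward, and the median change went from 0.11 to -0.08. The upward count was 3 without library 1, 5 or 12. In bulk RNA, fewer cells at a stage and less RNA per cell cannot be told apart, here and in the cell cycle results above and below.

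Genes of DNA replication changed in the opposite direction to the reversed mitotic genes. In 26 of 37 the change was upward and in none downward, against 7.06% upward among all genes, and 10 reversed from lower to higher, 9 faded and 7 grew. The median effect went from -0.21 at 16 h to 0.13 at 24 h, and the median change was 0.42, or 0.23 under TPM, where 17 were upward. Among all genes, TPM gave 27 reversals from lower to higher in place of 99. Whether a replication gene lay above solvent at 24 h, or only closer to it, can thus depend on the scaling. PCNA, the sliding clamp of DNA polymerases (chromosome 20, 5114953 to 5126626, minus strand), read 341 and 332 FPKM in solvent and 248 and 253 at 20 nM at 16 h, and 324 and 332 in solvent and 404 and 372 at 20 nM at 24 h. Solvent hardly moved, and the treated level passed from below to above it (log2 -0.42 at 16 h and 0.24 at 24 h, a change of 0.66, SE 0.06, adjusted p = 0.000782). CDC6, which loads the MCM helicase (chromosome 17, 40287633 to 40304657, plus strand), read 130.5 and 120.3 FPKM in solvent and 84.7 and 90.7 at 20 nM at 16 h, and 130.4 and 118 in solvent and 176 and 164 at 20 nM at 24 h (log2 -0.51 at 16 h and 0.45 at 24 h, a change of 0.96, SE 0.09, adjusted p = 0.000998). RFC4, a subunit of the clamp loader (chromosome 3, 186789880 to 186807058, minus strand), read 121 and 114 FPKM in solvent and 91 and 92.9 at 20 nM at 16 h, and 100.2 and 106 in solvent and 147 and 137 at 20 nM at 24 h (log2 -0.35 at 16 h and 0.46 at 24 h, a change of 0.81, SE 0.07, adjusted p = 0.000638). In both, treated and solvent libraries did not overlap at either time.

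The other reversed replication genes covered licensing, the fork and its checkpoint. CLSPN, claspin, which signals stalled forks, read 42.3 and 41.2 FPKM in solvent and 30.1 and 30.9 at 20 nM at 16 h, and 42.8 and 42.4 in solvent and 51.9 and 55.2 at 20 nM at 24 h (change 0.76, SE 0.06, adjusted p = 0.000472). DTL, which directs PCNA-coupled protein destruction, read 40.3 and 38.8 FPKM in solvent and 30.8 and 27.8 at 20 nM at 16 h, and 50.4 and 51.3 in solvent and 64.2 and 76.9 at 20 nM at 24 h (change 0.88, SE 0.11, adjusted p = 0.00263). Solvent was higher at 24 h as well, by 0.35 (adjusted p = 0.0382), and both treated libraries at 24 h lay above it. MCM5, a helicase subunit, ORC1, of the origin recognition complex, PRIM1, the primase, and CDC45, a helicase partner, changed by 0.59, 0.62, 0.61 and 0.63. MCM6 returned to solvent level, with effects of -0.39 and 0.02. The licensing inhibitor GMNN was near solvent at 16 h and above it at 24 h, with effects of -0.01 and 0.32 (change 0.32, adjusted p = 0.00947, and 0.135 under TPM).

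Homologous recombination and Fanconi genes, which repair broken and crosslinked DNA, moved in the same direction. In 11 of 20 the change was upward and in none downward, with a median effect of -0.30 at 16 h and 0.01 at 24 h. EXO1, a nuclease of resection and mismatch repair, read 33.8 and 30.4 FPKM in solvent and 22.3 and 22.6 at 20 nM at 16 h, and 29.6 and 27.7 in solvent and 39.2 and 37.7 at 20 nM at 24 h. It was below both solvent libraries at 16 h and above both at 24 h (log2 -0.49 at 16 h and 0.41 at 24 h, a change of 0.91, SE 0.09, adjusted p = 0.000998). RBBP8 (CtIP), which starts resection, changed by 0.69 (adjusted p = 0.00183). The count was 5 without library 1 or 12, and 6 without 2, 5 or 11. Under TPM it was 5 upward and 1 downward, and the median change of 0.41 became 0.24.

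Regulators of these waves moved less evenly. Of 15 G1/S cyclins and E2F factors 4 changed upward and none downward. E2F2, an activating E2F, read 6.12 and 6.73 FPKM in solvent and 5.16 and 4.6 at 20 nM at 16 h, and 6.64 and 6.81 in solvent and 8.49 and 8.52 at 20 nM at 24 h, with a change of 0.64, and E2F8, a repressing one, changed by 0.72 (adjusted p = 0.00589 and 0.00485). In the FOXM1 and MuvB list 3 of 12 changed upward and 2 downward. RBL1 (p107), a pocket protein of repressive MuvB complexes, read 7.26 and 8.18 FPKM in solvent and 3.75 and 3.89 at 20 nM at 16 h, and 7.56 and 7.63 in solvent and 7.12 and 7.87 at 20 nM at 24 h, so it was low at 16 h alone (change 0.84, SE 0.11, adjusted p = 0.00277). E2F5, a repressive E2F, read 9.07 and 10.7 FPKM in solvent and 11.8 and 10.6 at 20 nM at 16 h, and 13.4 and 14.5 in solvent and 7.81 and 8.08 at 20 nM at 24 h. It was below solvent at 24 h, when solvent itself was higher than at 16 h (change -0.90, SE 0.12, adjusted p = 0.0032). Without library 1, 2, 5, 11 or 12 only 1 upward call was left in that list. Of 11 genes for making deoxynucleotides 2 changed upward, among them DCK, the deoxycytidine kinase (effects -0.20 and 0.27, adjusted p = 0.00242 for the change). That count was 1 without library 1, 2, 5, 11 or 12 and 4 without 7.

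Tubulin mRNAs, the transcripts closest to the drug's target, stayed low at both times. Of 12 alpha- and beta-tubulin genes 8 were lower and 1 higher at 16 h, and 7 were lower and none higher at 24 h, against 11% lower at 16 h and 14.1% lower at 24 h among all genes. The change of effect was called, upward, in 3, and the median effects were -0.27 and -0.26. TUBB, a main beta-tubulin (chromosome 6, 30720201 to 30725426, plus strand), read 972 and 943 FPKM in solvent and 469 and 461 at 20 nM at 16 h, and 1043 and 1070 in solvent and 753 and 788 at 20 nM at 24 h. All treated libraries were below all solvent libraries, by less at 24 h (log2 -1.04 at 16 h and -0.45 at 24 h, a change of 0.59, SE 0.05, adjusted p = 0.0009). TUBA1C, an alpha-tubulin, read 1401 and 1425 FPKM in solvent and 709 and 721 at 20 nM at 16 h, and 1474 and 1473 in solvent and 878 and 932 at 20 nM at 24 h (effects -0.98 and -0.70, change 0.28, adjusted p = 0.0149). Its change did not pass without library 1 (0.0617) or 11 (0.0524), or under TPM (0.324). TUBA1B, another, had effects of -0.47 and -0.22 and a change of 0.24 that did not pass without library 1, 2, 5 or 11 (0.0559 to 0.0608) or under TPM (0.491). TUBB4B read 868 and 834 FPKM in solvent and 676 and 689 at 20 nM at 16 h, and 809 and 814 in solvent and 591 and 523 at 20 nM at 24 h, with a change of -0.23 that did not pass (adjusted p = 0.0796), but passed without library 7 (0.00526) and under TPM (0.00747). TUBB3 had effects of -0.29 and -0.29. The count of upward changes was 1 without library 1 or 11, and 1 with 5 downward under TPM. RSEM divides reads among near-identical tubulin copies, so levels of single copies are uncertain.

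Histone transcripts rose further. Of 32 genes of the histone clusters 18 passed the filter on low values, so the counts cover those alone and a gene could pass through its treated libraries. In 10 of the 18 the effect grew upward, against 3.71% of all genes, and in none downward. The median effect went from 0.79 to 2.15. Both the count and the median take in genes such as HIST2H2BE, tested only because of treated libraries where they are higher. They are therefore descriptions and not a test. HIST2H2AA4, an H2A gene with a near-identical neighbour (chromosome 1, 149851061 to 149851624, plus strand), read 7.13 and 7.52 FPKM in solvent and 33.7 and 27.9 at 20 nM at 16 h, and 9.35 and 10.8 in solvent and 111 and 117 at 20 nM at 24 h. Each treated group lay above solvent, and the 24 h group above the 16 h group (log2 1.93 at 16 h and 3.37 at 24 h, a change of 1.45, SE 0.14, adjusted p = 0.00106). HIST1H1C, linker histone H1.2 (chromosome 6, 26055787 to 26056428, minus strand), read 3.78 and 5.8 FPKM in solvent and 9.62 and 11.5 at 20 nM at 16 h, and 4.88 and 6.54 in solvent and 35.6 and 40.6 at 20 nM at 24 h (log2 1.01 at 16 h and 2.55 at 24 h, a change of 1.54, SE 0.24, adjusted p = 0.00583). HIST2H2BE, an H2B gene, read 0.33 and 0.39 FPKM in solvent and 3.59 and 3.49 at 20 nM at 16 h, and 0.43 and 0.43 in solvent and 7.63 and 8.14 at 20 nM at 24 h (log2 change 0.90), and it passed the filter through treated libraries only. These values understate the fold, because 1 is added before the logarithm. HIST1H2BK and HIST1H2BD changed by 1.24 and 1.07, HIST1H2BK without its call when library 1 or 5 was left out (adjusted p = 0.0676 and 0.0660) and HIST1H2BD when 1 or 11 was (0.0510 and 0.0517). The list count was 6 without library 1, 2, 5, 6 or 11. Poly(A) selection captures replication-dependent histone mRNA poorly, so these levels depend on that step, and whether the drug changed the tailed share was not tested.

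**Figure D3:**
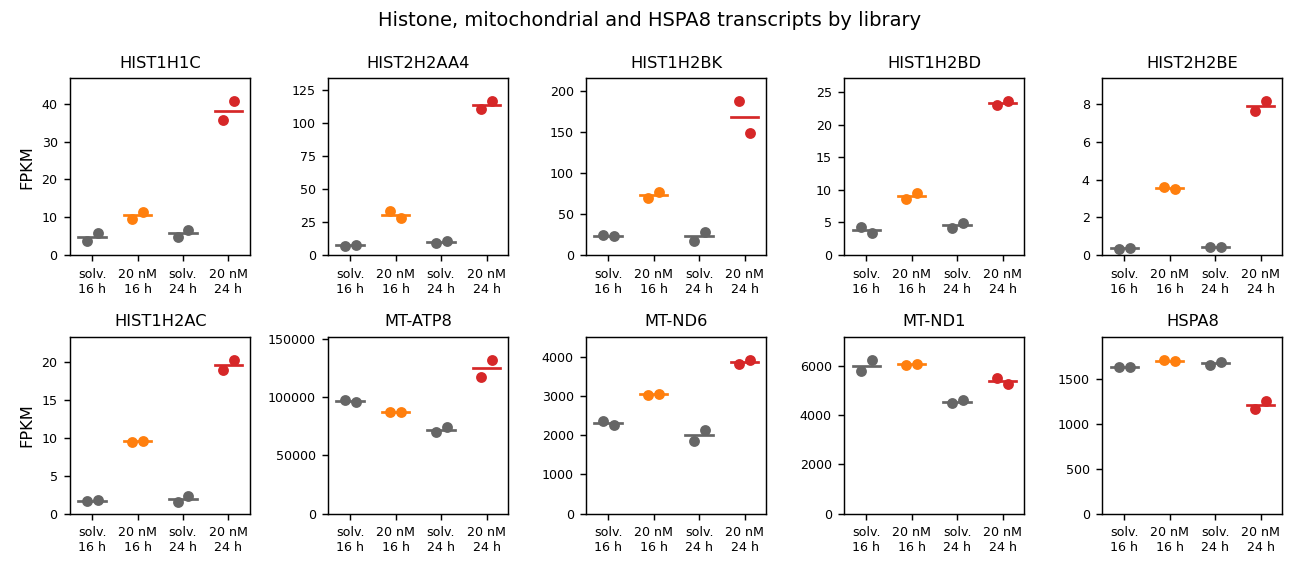
FPKM of 6 histone, 3 mitochondrially encoded and 1 chaperone gene in each library (points) with group means (bars); y axes start at 0 and differ between genes. Histone points climb from solvent to 16 h to 24 h of drug, MT-ATP8 is below solvent at 16 h and above it at 24 h, and HSPA8 falls below solvent at 24 h.

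Mitochondrially encoded transcripts, all from the circular genome of the organelle, were above solvent at 24 h in 12 of 13 and at 16 h in 3, against 14.7% and 6.78% of all genes. The effect grew upward in 7, against 3.71% of all genes, and no change was called downward, and the median effect went from 0.13 to 0.57. MT-ATP8, a short ATP synthase subunit gene that overlaps MT-ATP6, read 97106 and 95301 FPKM in solvent and 86925 and 87042 at 20 nM at 16 h, and 69910 and 74112 in solvent and 117350 and 131550 at 20 nM at 24 h. Solvent libraries read lower at 24 h than at 16 h and treated libraries higher (log2 -0.15 at 16 h and 0.79 at 24 h, a change of 0.93, SE 0.15, adjusted p = 0.00589). Without the filter on low values its change did not pass (adjusted p = 0.404). MT-ND6, the gene on the light strand, read 2358 and 2262 FPKM in solvent and 3029 and 3060 at 20 nM at 16 h, and 1865 and 2134 in solvent and 3803 and 3910 at 20 nM at 24 h (change 0.55, adjusted p = 0.0155), and did not pass without library 1, 2, 5 or 11 (0.0505 to 0.0587). MT-ND1 did not pass (change 0.23, adjusted p = 0.112). The count was 1 without library 1, 2 or 11, 2 without 5, 3 without 6 and 4 without 12, and 2 under TPM. The share of mitochondrial transcripts in each library, given above, is the sum of these same values.

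Several chaperone genes went from near or above solvent to below it. In the heat shock list, 7 of 15 changed downward and none upward, and the median effect went from 0.06 to -0.13. The count was 4 without library 1 or 6, and 13 under TPM. BAG3, a co-chaperone of HSP70 (chromosome 10, 119651370 to 119677819, plus strand), read 96.1 and 98.5 FPKM in solvent and 131 and 124 at 20 nM at 16 h, and 121 and 123 in solvent and 85.6 and 83.3 at 20 nM at 24 h, above solvent at 16 h and below at 24 h (log2 0.39 at 16 h and -0.52 at 24 h, a change of -0.91, SE 0.05, adjusted p = 0.000116). HSPA8, the constitutive HSP70, read 1624 and 1625 FPKM in solvent and 1704 and 1692 at 20 nM at 16 h, and 1649 and 1689 in solvent and 1158 and 1255 at 20 nM at 24 h, with a change of -0.53 (SE 0.06, adjusted p = 0.00139). The inducible HSPA1B was lower at both times, with effects of -0.51 and -0.89 (change -0.38, adjusted p = 0.00181), and its near-identical copy HSPA1A shares reads with it. Among chaperones of the endoplasmic reticulum 6 of 20 changed downward and none upward, with medians of 0.03 and -0.09. HYOU1, a large chaperone of that compartment, reversed from 0.23 to -0.35 (adjusted p = 0.00183). HSPA5 (BiP), the main HSP70 there, read 277 and 274 FPKM in solvent and 277 and 274 at 20 nM at 16 h, and 255 and 270.0 in solvent and 205 and 199.8 at 20 nM at 24 h, overlapping solvent at 16 h and lower at 24 h (change -0.37, SE 0.06, adjusted p = 0.00647). PDIA4, a disulfide isomerase, changed by -0.37 (adjusted p = 0.00271).

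Cholesterol synthesis genes were lowered at 16 h in 14 of 24 and at 24 h in 19, against 11% and 14.1% of all genes. The effect grew downward in 4, against 2.70% of all genes. FDFT1, squalene synthase, had effects of -0.45 and -0.67 (change -0.22, SE 0.05, adjusted p = 0.0294), and its change did not pass without library 1, 2, 5, 6, 11 or 12 (adjusted p = 0.0575 to 0.107). The list count was 1 without library 2, 5, 6 or 11, 2 without 12 and 13 under TPM. Of 22 SRF and actin genes 5 changed downward, against 4.46% of all genes, and none upward. Under TPM 12 were downward, and fewer than 5 were without library 1, 2, 6 or 12. MYL9, a myosin light chain, read 49.1 and 51.9 FPKM in solvent and 70.9 and 67.8 at 20 nM at 16 h, and 53.6 and 53.5 in solvent and 55.3 and 48 at 20 nM at 24 h, so its rise at 16 h faded (change -0.50, SE 0.09, adjusted p = 0.00879).

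Some growth signalling genes that were below solvent at 16 h were not below it at 24 h. The small list counts here stand beside 7.06% upward and 4.46% downward among all genes. CTGF, a secreted YAP target (16 YAP and TEAD targets, 2 changed upward and 1 downward), read 8.93 and 7.95 FPKM in solvent and 3.64 and 3.64 at 20 nM at 16 h, and 5.02 and 5.2 in solvent and 5.51 and 5.31 at 20 nM at 24 h. It was below solvent at 16 h and level with it at 24 h, while solvent itself was lower at 24 h than at 16 h (log2 -1.02 at 16 h and 0.07 at 24 h, a change of 1.09, SE 0.12, adjusted p = 0.00181). The upward count was 1 without library 1, 2, 5 or 12, and the downward one 0 without 1, 2, 5, 6, 11 or 12. DKK1, a Wnt antagonist and Wnt target, read 536 and 549.8 FPKM in solvent and 364 and 369 at 20 nM at 16 h, and 574 and 595 in solvent and 655 and 728 at 20 nM at 24 h, a reversal (log2 -0.57 at 16 h and 0.24 at 24 h, a change of 0.81, SE 0.07, adjusted p = 0.000689). Of 14 Wnt targets 2 changed upward, and 1 without library 1, 2 or 11. In the ERK list 5 of 19 changed upward and 1 downward, and the downward count was 0 without library 1, 2, 5, 6, 11 or 12. DUSP6, the phosphatase that feeds back on ERK, read 29.1 and 31.6 FPKM in solvent and 20.8 and 21.2 at 20 nM at 16 h, and 34.6 and 32.4 in solvent and 35.5 and 42.7 at 20 nM at 24 h (change 0.72, SE 0.11, adjusted p = 0.00602). The EGF receptor ligands AREG and EREG had effects of -0.07 and 0.50 and of -0.12 and 0.39, so they were above solvent at 24 h alone (adjusted p of the change = 0.00417 and 0.00813).

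Of 22 AP-1 and immediate early genes 5 changed upward and none downward, against 7.06% and 4.46% of all genes. Their median effect went from 0.16 to 0.53. Under TPM 2 were upward and 1 downward. JUND, an AP-1 subunit, read 116 and 113 FPKM in solvent and 78 and 68.9 at 20 nM at 16 h, and 135 and 140.0 in solvent and 147 and 151 at 20 nM at 24 h. It was below solvent at 16 h and just above at 24 h (change 0.75, SE 0.11, adjusted p = 0.0046). KLF6, a zinc finger factor, had effects of -0.48 and 0.11 (change 0.59, adjusted p = 0.00217). Interferon-stimulated genes changed upward in 3 of 22, against 7.06% of all genes, and in fewer without library 2. The 3 include IFIT2, which is no test in its own right, as its values below show. IFIT2, which binds foreign RNA, read 0.33 and 0.25 FPKM in solvent and 1.17 and 1.18 at 20 nM at 16 h, and 0.24 and 0.2 in solvent and 3.01 and 3.41 at 20 nM at 24 h, at low levels throughout. All its solvent libraries are under the 1 FPKM filter, so it was tested only because of the treated libraries where it is higher, and its change is given as a value alone (log2 1.03).

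The other stress and housekeeping lists held few called changes, to be read against 7.06% upward and 4.46% downward among all genes. Of 24 p53 targets 1 changed upward and 1 downward, of 14 BCL2 family genes 2 and 1, of 22 ATF4 targets 3 and 1, of 22 glycolysis genes 1 and 1, of 19 hypoxia targets 1 and 0, of 16 NRF2 targets 1 and 0, of 9 NF-kB targets 1 and 0 and of 10 tubulin mRNA decay and folding factors 1 and 1. BAD, a BCL2 family promoter of cell death, read 51.4 and 52.6 FPKM in solvent and 53.8 and 55 at 20 nM at 16 h, and 57.1 and 55.3 in solvent and 43.2 and 38.6 at 20 nM at 24 h, lower at 24 h alone (change -0.51, SE 0.07, adjusted p = 0.00416). Of 16 autophagy genes 2 changed upward, among them NBR1, a cargo receptor, with effects of -0.04 and 0.38 (adjusted p = 0.00446). Of 35 cytosolic ribosomal protein genes 3 changed upward, and under TPM 0 upward and 6 downward. In the keratin and junction list 1 of 17 changed upward, the epithelial adhesion molecule EPCAM (change 0.31, adjusted p = 0.00865, and 0.159 under TPM), and 4 downward, but 0 downward without library 1, 2 or 6. Counts of 1 to 4 such as these moved with single libraries: leaving 1 out gave 0 to 1 upward for p53 targets, 0 to 1 for the BCL2 family, 0 to 3 for glycolysis, 0 to 2 for hypoxia, 1 to 3 for autophagy and 0 to 4 for ribosomal proteins. Under TPM the median change turned from above to below 0 for the lists of condensation, the anaphase-promoting complex, centromeres, deoxynucleotides, YAP, Wnt, hypoxia, glycolysis, NF-kB, ribosomal proteins, autophagy, keratins and NRF2.

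**Figure D4:**
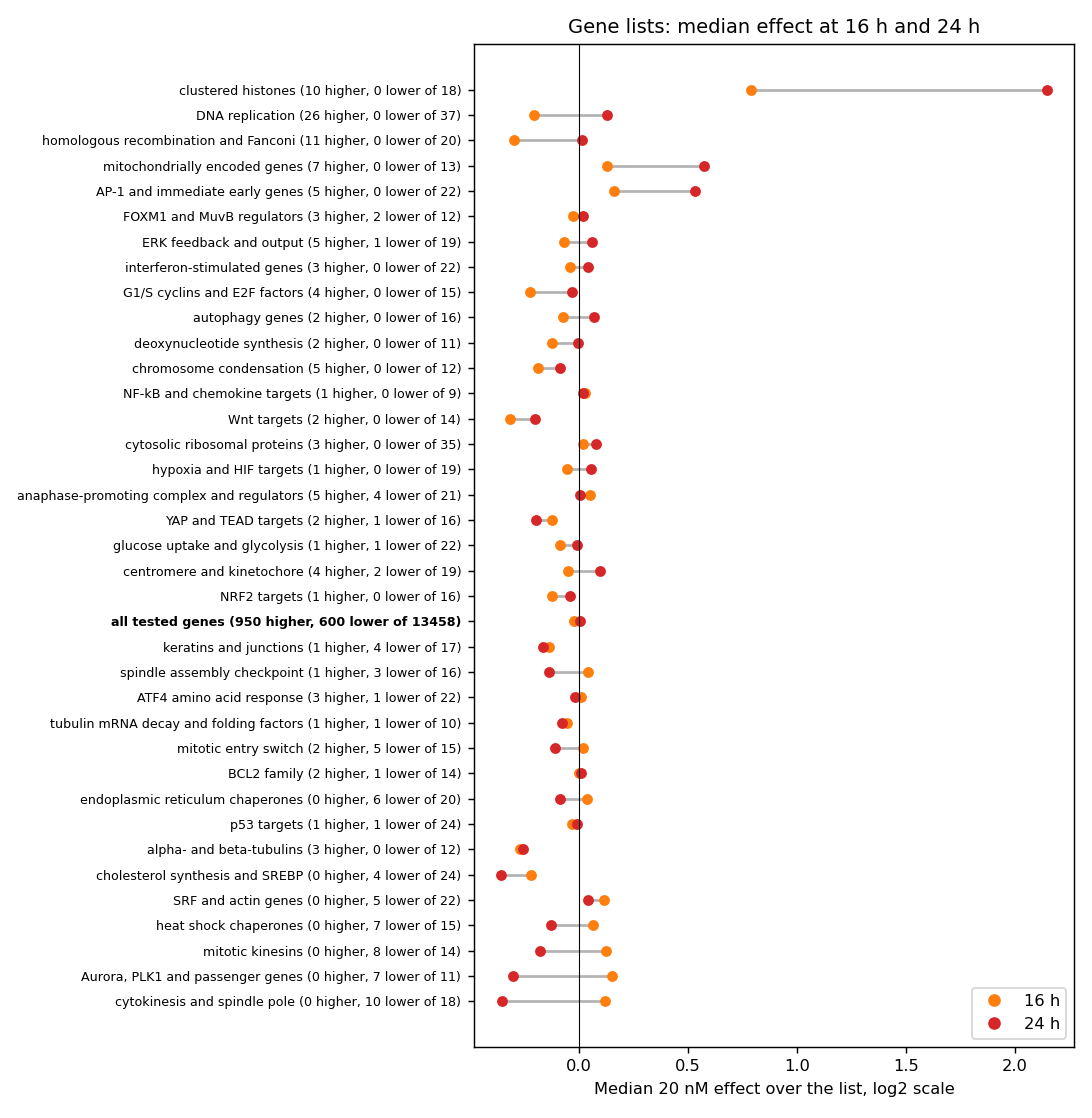
Each row is a gene list, with the median log2 effect of 20 nM over its tested genes at 16 h (orange) and 24 h (red), ordered by the median change; the label gives how many members changed upward and downward, and the row for all tested genes is in bold. Histone, replication, recombination and mitochondrial lists move to the right, and kinesin, Aurora and cytokinesis lists move from right of 0 to left of it.

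Beyond these lists, the genes with the largest reversals under the naming rule were of mixed function. From higher to lower, CCNB3, a cyclin otherwise known from meiosis, read 0.37 and 0.32 FPKM in solvent and 2.06 and 5.12 at 20 nM at 16 h, and 5.03 and 3.71 in solvent and 0.33 and 0.43 at 20 nM at 24 h (change -3.64, SE 0.59, adjusted p = 0.00712). Solvent differed between the times by 1.99 and treated cells by -1.65. SUN2, a protein of the inner nuclear membrane that links nucleus and cytoskeleton (chromosome 22, 38734725 to 38794143, minus strand), read 20.8 and 21.8 FPKM in solvent and 25.6 and 25.7 at 20 nM at 16 h, and 22.8 and 22.8 in solvent and 12.3 and 10.8 at 20 nM at 24 h. Solvent was steady, and the treated level dropped between 16 h and 24 h (log2 0.26 at 16 h and -0.93 at 24 h, a change of -1.18, SE 0.09, adjusted p = 0.000391). PIMREG, TROAP and GAS2L3, which act in mitosis or at microtubules, reversed by -0.99, -0.92 and -0.91 (adjusted p = 0.000998, 0.000998 and 0.00122).

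From lower to higher, SLC38A2, a neutral amino acid transporter (chromosome 12, 46358189 to 46372867, minus strand), read 201 and 201 FPKM in solvent and 118 and 113 at 20 nM at 16 h, and 200.1 and 205 in solvent and 257 and 278 at 20 nM at 24 h. The solvent libraries lay within 5 FPKM of each other, and no group overlapped another at either time (log2 -0.79 at 16 h and 0.40 at 24 h, a change of 1.19, SE 0.06, adjusted p = 8.71e-05). GPRC5A, a membrane receptor induced by retinoic acid, read 18.7 and 19.1 FPKM in solvent and 14.1 and 13.4 at 20 nM at 16 h, and 13.5 and 13.6 in solvent and 24.4 and 22.5 at 20 nM at 24 h (log2 -0.43 at 16 h and 0.75 at 24 h, a change of 1.18, SE 0.07, adjusted p = 0.000116). PTBP2, a splicing repressor best known from neurons, read 12.1 and 12.6 FPKM in solvent and 4.81 and 6.22 at 20 nM at 16 h, and 10 and 6 in solvent and 12.7 and 18.1 at 20 nM at 24 h (log2 -1.04 at 16 h and 0.88 at 24 h, a change of 1.92, SE 0.32, adjusted p = 0.00726), with the solvent pair at 24 h and both treated pairs well apart. HERC5, an ISG15 ligase, WDR76 and PAN2, a deadenylase subunit that trims mRNA tails, changed by 1.05, 1.02 and 1.20 (adjusted p = 0.000674, 0.00121 and 0.00482).

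Among genes whose rise faded, NABP1, a single-strand DNA binding protein, read 6.95 and 6.29 FPKM in solvent and 11.3 and 11.5 at 20 nM at 16 h, and 11.1 and 11.3 in solvent and 10.4 and 10.4 at 20 nM at 24 h. Treated cells hardly differed between the times, and solvent was higher at 24 h (change -0.80, SE 0.11, adjusted p = 0.00334). Among genes whose fall faded, RBM23, an RNA-binding splicing regulator, read 61.3 and 58.3 FPKM in solvent and 29 and 26.4 at 20 nM at 16 h, and 61.1 and 58.7 in solvent and 68.3 and 54.5 at 20 nM at 24 h (change 1.11, SE 0.14, adjusted p = 0.00247), while DYRK1A, a kinase that promotes assembly of the repressive MuvB complex, read 22.6 and 34.2 FPKM in solvent and 16.9 and 16 at 20 nM at 16 h, and 23.2 and 23 in solvent and 28.9 and 31.9 at 20 nM at 24 h (change 1.10, SE 0.21, adjusted p = 0.0126), with its solvent pair at 16 h well apart. Among genes lowered at 24 h with a larger effect than at 16 h was PALM, a membrane-shape protein. It read 8.82 and 10.1 FPKM in solvent and 10.2 and 9.28 at 20 nM at 16 h, where the groups overlapped. At 24 h it read 13.6 and 13.7 in solvent and 5.97 and 6.4 at 20 nM (log2 0.04 at 16 h and -1.03 at 24 h, a change of -1.07, SE 0.13, adjusted p = 0.00213). Its solvent level was higher at 24 h by 0.49.

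Transcripts of other gene types were few and mostly low. AC097662.1, an antisense RNA, read 0.46 and 0.66 FPKM in solvent and 4.63 and 4.3 at 20 nM at 16 h, and 0.68 and 0.89 in solvent and 0.55 and 0.97 at 20 nM at 24 h, so it was raised at 16 h alone. All its solvent libraries are under the 1 FPKM filter. It was tested only because of treated libraries where it is higher, and its change is given as a value alone (log2 -1.84). RPS3AP26, a processed pseudogene of a ribosomal protein, reversed from -0.65 to 0.84 (adjusted p = 0.00271). Reads of pseudogenes cannot be told safely from those of the related gene. The same holds for antisense partners, since the strand setting of the counting is not given in the sources used here. BCYRN1, a small noncoding RNA that fell outside the naming rule and was chosen after its values were seen, is listed at 0 in both solvent libraries at 16 h and both 20 nM libraries at 24 h. It read 82.7 and 436 FPKM at 20 nM at 16 h and 609.67 and 719 FPKM in solvent at 24 h. No fold is given, since a listed 0 may be a failed estimate.

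The change at 20 nM was set against the change at 100 nM in the same fit, a comparison added after the data were seen, in which the solvent groups cancel. At 100 nM the change of effect was called in 1368 genes (10.2%), and the change differed between the doses in 70 genes (0.520%). These values hold for the deposited scaling alone. FPKM sums at 24 h were 1048249 and 1049886 at 20 nM and 978510 and 989986 at 100 nM. Whether differences between doses, above all those near the threshold, depend on the scaling or on single libraries was not tested. CCNB1, PLK1, AURKA and BUB1B changed by -0.62, -0.82, -0.77 and -0.73 at 100 nM, and PCNA, CDC6 and DTL by 0.57, 1.05 and 0.93. These share the solvent libraries with the 20 nM values, and in none of the 7 did the difference between doses pass. CCNE2, cyclin E2, which drives S phase entry, changed by 0.52 at 20 nM and 1.95 at 100 nM (difference -1.43, SE 0.14, adjusted p = 0.0061). The immediate early genes JUNB, IER2 and IER3 also had larger upward changes at 100 nM, with differences (20 nM minus 100 nM) of -0.84, -0.67 and -0.46 (adjusted p = 0.0061, 0.0208 and 0.0422). Several mitotic genes changed downward at 100 nM and little at 20 nM, among them AURKB (-0.50 against -0.03), FAM83D, which recruits a kinase to the spindle (-0.79 against -0.08), CDC25C, the phosphatase that activates CDK1 (-0.74 against -0.06), and TTK, the checkpoint kinase (-0.53 against 0.19). Their adjusted p for the difference were 0.0422, 0.0061, 0.0422 and 0.0304. The rise of MT-ATP8 at 24 h was larger at 20 nM, with changes of 0.93 and 0.03 (difference 0.90, SE 0.15, adjusted p = 0.043). TUBA1C changed by 0.28 and -0.12 (difference 0.40, SE 0.06, adjusted p = 0.0294).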

How the data were processed

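Per the labels' protocols, RNA of HCT116 cells was poly(A)-selected, made into directional libraries and sequenced on an Illumina instrument as paired reads. The authors deposited 1 table of FPKM per gene and library. RSEM 1.2.28 and GRCh38 are named in the submitters' processing notes, and no source used here gives the aligner or strand setting. GENCODE 29 on GRCh38 gave symbols for 57836 of 58174 genes, and 338 had none. Column names hold the group and a library number (1 to 12) that does not match the labels' sample numbers.

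The filter kept 13458 genes (11660 protein-coding) that reached 1 FPKM in 2 or more of the 12 libraries. A linear model with 6 group means was fitted to log2(FPKM + 1) by limma 3.58.1 (R 4.3.3) with a mean-dependent prior (6 residual and 2.98 prior degrees of freedom). Tests were two-sided, with Benjamini-Hochberg adjustment over all tested genes and a threshold of 0.05. Log2 values understate the change of low genes. Both libraries of a group had the same value in 1.00% to 1.20% of tested genes, so none was treated as a copy. Scripts were tested on simulated data.

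The rule for named genes took, among called protein-coding genes with a symbol, no library at 0 and a highest group mean of at least 2 FPKM, the 8 largest changes in each direction for reversed genes and the 5 largest for each kind of faded and grown gene. It took 3 in each direction for other gene types. Members of 36 gene lists (688 symbols) could be named too. The comparison, members and lists were chosen with earlier results of these data known. Alternatives were pseudocounts of 0.1 and 0.5, other filters, 3 rescalings, a constant prior, the 8 libraries alone and leaving out each library. Promoter letters were searched on both strands in 250 bases before the first start listed per gene.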

Additional observations from a re-analysis of the deposited data

Results flagged for a closer look

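Each result here is a difference between the effects at 16 h and 24 h that passed the test of the difference itself (limma, Benjamini-Hochberg adjusted p under 0.05). That test was passed by 1550 genes. Values are log2 changes of the 20 nM effect, and no explanation was tested for any of them. Genes that reversed from higher to lower were CCNB3 (-3.64), SUN2 (-1.18), ZNF286B (-0.99), PIMREG (-0.99), TNFAIP8L1 (-0.97), BUB1B (-0.93), TROAP (-0.92) and GAS2L3 (-0.91). Reversals from lower to higher were found for PTBP2 (1.92), PAN2 (1.20), SLC38A2 (1.19), GPRC5A (1.18), HERC5 (1.05), WDR76 (1.02), CDC6 (0.96) and SMIM14 (0.94). The call of SMIM14 was lost without library 1 (adjusted p = 0.05 when rounded, just over the threshold). A rise at 16 h faded in HSBP1 (-0.95), WNK4 (-0.86), FBRSL1 (-0.84), NABP1 (-0.80) and ZDHHC1 (-0.79). Leaving out single libraries ended the call of HSBP1 without library 2, 5, 7, 8, 11 or 12, with adjusted p of 0.0508 to 0.0889. It ended for WNK4 without library 1, 2, 6, 8, 11 or 12, with adjusted p of 0.0628 to 0.101. The call ended for FBRSL1 without library 1, 2, 5, 11 or 12, with adjusted p of 0.0544 to 0.0689. No call was left for ZDHHC1 without library 1 or 11, with adjusted p of 0.0525 to 0.0559. With no filter on low values the calls of HSBP1, WNK4 and FBRSL1 were lost too (0.0808, 0.0874 and 0.0611). A decrease faded in MAPK15 (1.48), FBXO5 (1.19), TMCO6 (1.12), RBM23 (1.11) and DYRK1A (1.10). Leaving out single libraries ended the call of TMCO6 without library 2, 5, 6, 7 or 12, with adjusted p of 0.0532 to 0.0981. It ended for MAPK15 without library 11, with adjusted p of 0.0533. TMCO6 also lost it with no filter (0.0883) and with the 8 libraries alone (0.0640). Genes raised at 24 h, with an effect larger in size than at 16 h, were HIST1H2AM (2.17), HIST1H2BO (1.92), HIST1H4H (1.78), HIST2H4A (1.68) and HIST1H1C (1.54). Of these, HIST1H1C alone was called higher at 16 h, and HIST1H2AM then lay below both solvent libraries (log2 -0.68, not called). HIST1H4H read 0.47 and 1.13 FPKM in solvent at 16 h and 0.13 and 0.44 in solvent at 24 h. It was thus tested only because of treated libraries where it is higher, and its change is a value alone. Leaving out single libraries ended the call of HIST1H2AM without library 1, 2, 5, 6, 11 or 12, with adjusted p of 0.0567 to 0.108. It ended for HIST2H4A without library 1, 5, 6, 11 or 12, with adjusted p of 0.0693 to 0.105. The call ended for HIST1H2BO without library 2, 5 or 12, with adjusted p of 0.0657 to 0.0789. No call was left for HIST1H4H without library 2, 6 or 11, with adjusted p of 0.0602 to 0.0711. With no filter these 4 were lost (0.0999, 0.0964, 0.0731 and 0.0626), and with the 8 libraries alone HIST1H2AM and HIST2H4A (0.0673 and 0.0775). Genes lowered at 24 h, with an effect larger in size than at 16 h, were TMEM265 (-1.54), SHD (-1.28), FAM102A (-1.09), PALM (-1.07) and SLC2A9 (-1.02). None of them was lowered at 16 h, when their effects were 0.15, 0.36, 0.42, 0.04 and 0.41 and not called. Leaving out single libraries ended the call of TMEM265 without library 1, 2, 5, 6, 7, 11 or 12, with adjusted p of 0.0527 to 0.0769. It ended for FAM102A without library 1, 5, 6, 7, 11 or 12, with adjusted p of 0.0635 to 0.0926. The call ended for SLC2A9 without library 1, 5, 6, 7, 11 or 12, with adjusted p of 0.0894 to 0.126. With no filter these 3 were lost (0.0726, 0.0878 and 0.127), and SLC2A9 also with a constant prior (0.0571) and the 8 libraries alone (0.0909). Among other gene types the changes were 2.04 for AL136298.3, 1.55 for PMS2P4, 1.49 for RPS3AP26, -2.99 for SMARCA5-AS1, -2.11 for RPL22P1 and -1.84 for AC097662.1. That of AC097662.1 is a value alone, since the gene was tested only because of its treated libraries. Leaving out single libraries ended the call of PMS2P4 without library 1, 2, 5, 6, 7, 8, 11 or 12, with adjusted p of 0.0508 to 0.106. It ended for RPL22P1 without library 2, 5, 6, 7, 8 or 11, with adjusted p of 0.0510 to 0.0876. The call ended for AL136298.3 without library 2, 5, 7, 8 or 11, with adjusted p of 0.0553 to 0.103. No call was left for SMARCA5-AS1 without library 1, 2, 5, 6 or 7, with adjusted p of 0.0575 to 0.0856. PMS2P4 was called in none of the 8 fits that leave out a library. With no filter these 4 were lost (0.0964, 0.0831, 0.0945 and 0.0848), and with the 8 libraries alone RPL22P1, AL136298.3 and SMARCA5-AS1 (0.0616, 0.0588 and 0.0561).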

How the results depend on the processing

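Pseudocounts of 0.1 and 0.5, a minimum of 5 FPKM, median-of-ratios scaling and a constant prior left the counts over all tested genes within 1.5 times their reported values. With no filter on low values the change was called in 1008 genes (609 upward, 399 downward), with 50 reversed from higher to lower and 543 grown, and 326 genes differed between solvent groups. Rescaling to a common sum turned the balance of calls downward, with 2462 (346 upward, 2116 downward), and gave 221 reversed from higher to lower, 27 reversed from lower to higher and 1643 grown, and 1187 between solvent groups. A common nuclear sum gave 625 upward and 934 downward. The 8 libraries alone gave 954 (592 upward, 362 downward), with 54 reversed from higher to lower, 284 faded and 523 grown, and 239 between solvent groups. Leaving out 1 library at a time gave 705 to 1753 changes, 426 to 974 upward, 268 to 779 downward, 31 to 102 reversed from higher to lower, 44 to 105 reversed from lower to higher, 190 to 498 faded and 330 to 963 grown. It gave 1036 to 2774 effects at 16 h, 2153 to 3630 at 24 h, 23 to 1437 differences between solvent groups and 2000 to 4028 between 20 nM groups. The lone library of such a group is assumed to vary like the others. The cause of these shifts was not tested. No paired analysis was possible because the columns carry library numbers that do not match the labels' sample numbers. FPKM keeps no depth, so no limit for low genes can be set.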
